A study of Mus musculus with 13 samples.

Results

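The complement system is a set of secreted proteins that act in sequence on surfaces. In the classical arm, antibody-bound C1q activates the proteases C1r and C1s, which cut C4 and C2 to form an enzyme that cleaves C3. The products go on to C5, and C5b then collects C6, C7, C8 and C9 into the membrane attack complex. Most of these proteins in plasma come from the liver, but fibroblasts and other stromal cells are known to make several of them.

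Described here are 9 complement genes of the mouse mammary fibroblast, of 32285 genes counted: C1ra, C1rb and C1s1 (the C1 proteases), C2 and C4b (the substrates of C1s), C3 (the central component), Hc (the mouse gene of C5) and C7 (terminal components), and Serping1 (the C1 inhibitor, which blocks C1r and C1s). They were chosen by gene symbol, with their level in each library and their detection in fibroblast states already known. Levels and detection are therefore a description of the members and not a test of them. The p-values of the comparisons come from fits over all genes, and for genes chosen in this way they are not independent evidence. The other 46 genes of a fixed complement list served for comparison, and all 46 were present among the counted genes.

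The data were droplet single-cell 3′ RNA libraries, 13 in 9 groups. The stages of post-natal development, puberty (4 weeks), adult (9 weeks, virgin), pregnancy (day 14.5), lactation (day 10) and involution (day 4), had 1 library each, from wild-type C57BL/6 females. Placebo and MPA+E (medroxyprogesterone acetate, a progestin, given with estradiol) had 2 libraries each, from C57BL/6 wild-type females of 9 weeks. In all of these the stromal cells were sorted as negative for lineage markers (CD31, CD45, TER-119) and for CD24, and the females of a library were pooled. Hyperplasia and tumour had 2 libraries each, from raGFP-Wnt1 females (Pdgfra-GFP KI/+ MMTV-Wnt1 T/+) on a mixed C57BL/6 FVB background, in which the MMTV promoter drives Wnt1 in the mammary epithelium and GFP reports Pdgfra. Here GFP-positive cells were sorted, so the reporter itself defined the cells. Libraries of the same number came from 1 mouse, aged 45 weeks (number 1) or 17 weeks (number 2).

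Fibroblast barcodes numbered 100523 of 120355, with 4236 to 11951 in a library. They held 47521842 to 102522735 UMIs (unique molecular identifiers, 1 for each captured transcript) in a library, and the median fibroblast had 3990 to 20256. Levels are given as CPM, the UMIs of a gene per 1e+06 UMIs over the summed fibroblast barcodes of a library. The sum of the fibroblast markers Dcn, Lum, Pdgfra and Col1a2 was 17200 to 26400 CPM in every library. The summed macrophage markers stood at 1.18 to 5.92 CPM. Libraries shared 0.0708% to 0.503% of the smaller library's barcodes. The replicate libraries of a group differed beyond the sampling noise of their counts in all 4 replicated groups. Intervals given with single libraries cover counting error only.

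The members lay in a few genomic neighbourhoods (GRCm38, GENCODE M21). C1ra (chr6:124512405-124523443), C1s1 (chr6:124530345-124542359) and C1rb (chr6:124570294-124581171) followed each other on chromosome 6, with C1s2, a close copy of C1s1, 43.5 kb beyond C1rb. C4b (chr17:34728380-34743882) and C2 (chr17:34862604-34898265) lay 119 kb apart on chromosome 17, and Cfb, the C2-like protease of the alternative arm, ended 0.086 kb from C2. C3 (chr17:57203970-57228136) lay farther along the same chromosome. C7 (chr15:4988762-5063740) lay 174 kb from C6, its partner in the membrane attack complex. Hc (chr2:34983331-35061438) and Serping1 (chr2:84765387-84775444) were on chromosome 2.

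Several members have near-identical copies, which limits how reads can be assigned. Over 2429 aligned bases the C1ra and C1rb transcripts were 98.0% identical, and 48.0% of the 50-base words of C1ra also occurred in C1rb. For C1s1 and C1s2 the shared words were 24.3%, and for C4b and C4a they were 35.2%. Within the last 500 bases, nearest to what a 3′ library reads, the shares were 19.1%, 18.0% and 38.1% for the 3 pairs. No 50-base word was shared between C2 and Cfb or between C6 and C7. The levels of C1ra, C1rb, C1s1 and C4b are uncertain where reads fall in such words.

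RefSeq (GRCm38.p6) held promoter entries for 6 of the 9 members, and 3 are shown over the 250 bases before the start site, written 5′ to 3′ in the direction of the gene. C7 is shown because it moved most under hormone treatment, C1s1 as a broadly present protease and C3 as the central component. Capitals mark the letters of a searched motif found on either strand.
C7 (chr15:5063774-5064023, minus strand): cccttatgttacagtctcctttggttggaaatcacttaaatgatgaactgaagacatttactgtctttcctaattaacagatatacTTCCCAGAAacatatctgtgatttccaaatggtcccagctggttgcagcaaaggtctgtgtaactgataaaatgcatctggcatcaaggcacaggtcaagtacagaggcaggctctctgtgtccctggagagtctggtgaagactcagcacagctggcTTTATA
C1s1 (chr6:124542360-124542609, minus strand): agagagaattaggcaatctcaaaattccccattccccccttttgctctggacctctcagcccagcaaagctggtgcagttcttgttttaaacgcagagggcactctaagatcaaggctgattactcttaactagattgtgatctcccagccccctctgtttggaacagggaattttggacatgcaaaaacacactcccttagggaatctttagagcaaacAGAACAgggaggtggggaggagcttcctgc
C3 (chr17:57228137-57228386, minus strand): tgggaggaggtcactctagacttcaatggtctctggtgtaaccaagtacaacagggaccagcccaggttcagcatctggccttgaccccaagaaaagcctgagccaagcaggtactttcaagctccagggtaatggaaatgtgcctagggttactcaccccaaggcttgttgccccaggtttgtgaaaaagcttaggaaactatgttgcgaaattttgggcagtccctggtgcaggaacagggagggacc

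Both strands were searched for 7 motifs. A pair belongs to the core promoter, the TATA box, read as the letters TATAAA, and the CCAAT box. The steroid receptor half-site, bound by receptors of the progesterone and glucocorticoid type, was read as AGAACA, and the gamma-activated site of signalling by STAT proteins as TTCNNNGAA. The E-box was read as CACGTG, and the estrogen response element and the interferon-stimulated response element are given by name. The C7 window held a gamma-activated site, TTCCCAGAA, 164 bases before the start, and the letters of a TATA box on the opposite strand 6 bases before it. Of 32851 promoters of the same length, 7.02% held a gamma-activated site and 12.4% a TATA box. The C1s1 window held 1 steroid receptor half-site, 30 bases before the start, as did 16.1% of all promoters. The C3 window held none of the 7 motifs, and neither did that of C1ra. C1rb held a gamma-activated site, TTCCCTGAA, 119 bases before its start, and Hc a TATA box 239 bases before. Start sites here are those of RefSeq, and the C1ra, C1rb and Hc windows reach into the genes as GENCODE places them. The estrogen response element was in no member window and in 0.0639% of all promoters. These matches describe letters only.

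The C1 proteases were present in every library. C1ra, which encodes C1r, stood at 215, 256, 248, 311 and 384 CPM in puberty, adult, pregnancy, lactation and involution. Placebo libraries held 274 and 259, MPA+E libraries 275 and 226; it was 273 and 249 in hyperplasia, and 156 and 103 in tumours. The 2 tumour libraries were the lowest of the 13, and the hormone groups overlapped. C1s1, which encodes C1s, stood at 416, 472, 465, 661 and 782 CPM over the same stages, 658 and 615 in placebo, 513 and 453 in MPA+E libraries, 774 and 559 in hyperplasia, and 534 and 274 in tumours. C1ra and C1s1 were the pair of members whose levels were most alike over the 13 libraries (r = 0.818, a description over libraries that share stages and sorts). C1ra and C3, on different chromosomes, were close behind (r = 0.799).

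C1rb behaved differently from its neighbours. In the 9 wild-type libraries it stood at 0.164 to 0.444 CPM, with 8 to 33 UMIs in a library and 193 in all. In hyperplasia it stood at 56.6 and 56.9 CPM and in tumours at 31.1 and 15.3, from 1345 to 4118 UMIs. All 4 raGFP-Wnt1 libraries lay above all 9 wild-type ones, with no overlap. As a share of the UMIs of C1ra and C1rb together, C1rb made up 0.0714% to 0.166% in wild-type libraries and 17.2%, 18.6%, 16.6% and 12.9% in the raGFP-Wnt1 libraries.

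C1s2, the copy of C1s1 next to C1rb, split the libraries in the same place. It stood at 0.969 CPM or less in the wild type and at 40.9, 41.4, 36.1 and 12.4 CPM in hyperplasia 1, hyperplasia 2, tumour 1 and tumour 2. Among 7866 genes with a mean of at least 10 CPM, C1s2 was the gene most like C1rb over the 13 libraries (r = 0.996, Pearson on log2(CPM + 1)), followed by Ifi202b (0.994) and Pianp (0.98). Strain background, sort, age and transgene all differ between the 2 sets of libraries and cannot be told apart here.

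C2 and C4b are the substrates of C1s. C2 stood at 99.2, 55.7, 71.6, 48.4 and 102 CPM from puberty to involution, 80.2 and 72.3 in placebo, 114 and 121 in MPA+E libraries, 112 and 87.6 in hyperplasia, and 54.5 and 55.7 in tumours. C4b stood at 223, 261, 275, 138 and 304 CPM over the stages. The placebo libraries held 322 and 281 CPM and the MPA+E libraries 681 and 685, with 243 and 200.3 in hyperplasia, and 345 and 120 in tumours. The MPA+E libraries were the 2 highest of the 13 for both genes, and the 2 tumours lay on either side of both hyperplasia libraries for C4b.

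C3, on which all complement arms meet, stood at 1068, 1838, 1636, 1189 and 1245 CPM over the stages, 1905 and 1810 in placebo, 1178 and 1366 in MPA+E libraries, 1345 and 1204 in hyperplasia, and 892 and 193 in tumours. Tumour 2 lay far below every other library. Serping1, the inhibitor, varied least over the stages. It stood at 1566, 1588, 1549, 1543 and 1567 CPM over the stages, 1397 and 1379 in placebo, 1867 and 1739 in MPA+E libraries, 1442 and 1553 in hyperplasia, and 1472 and 1018 in tumours.

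Of the members, the terminal components had the widest ranges over the stages. Hc stood at 3.33, 21.1, 38.7, 59.8 and 98.4 CPM from puberty to involution, in the order of the stages. It was 59.2 and 48.3 in placebo libraries, 70.4 and 81.4 in MPA+E libraries, 37.6 and 39.6 in hyperplasia, and 28.3 and 28.4 in tumours. C7 stood at 1.11, 2.23, 2.80, 9.46 and 4.11 CPM over the stages, 4.10 and 6.13 in placebo, 43.8 and 32.2 in MPA+E libraries, 11.0 and 13.4 in hyperplasia, and 0.556 and 0.160 in tumours, where tumour 2 held 14 UMIs. Its lowest libraries were the tumours and its highest MPA+E.

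**Figure D1:**
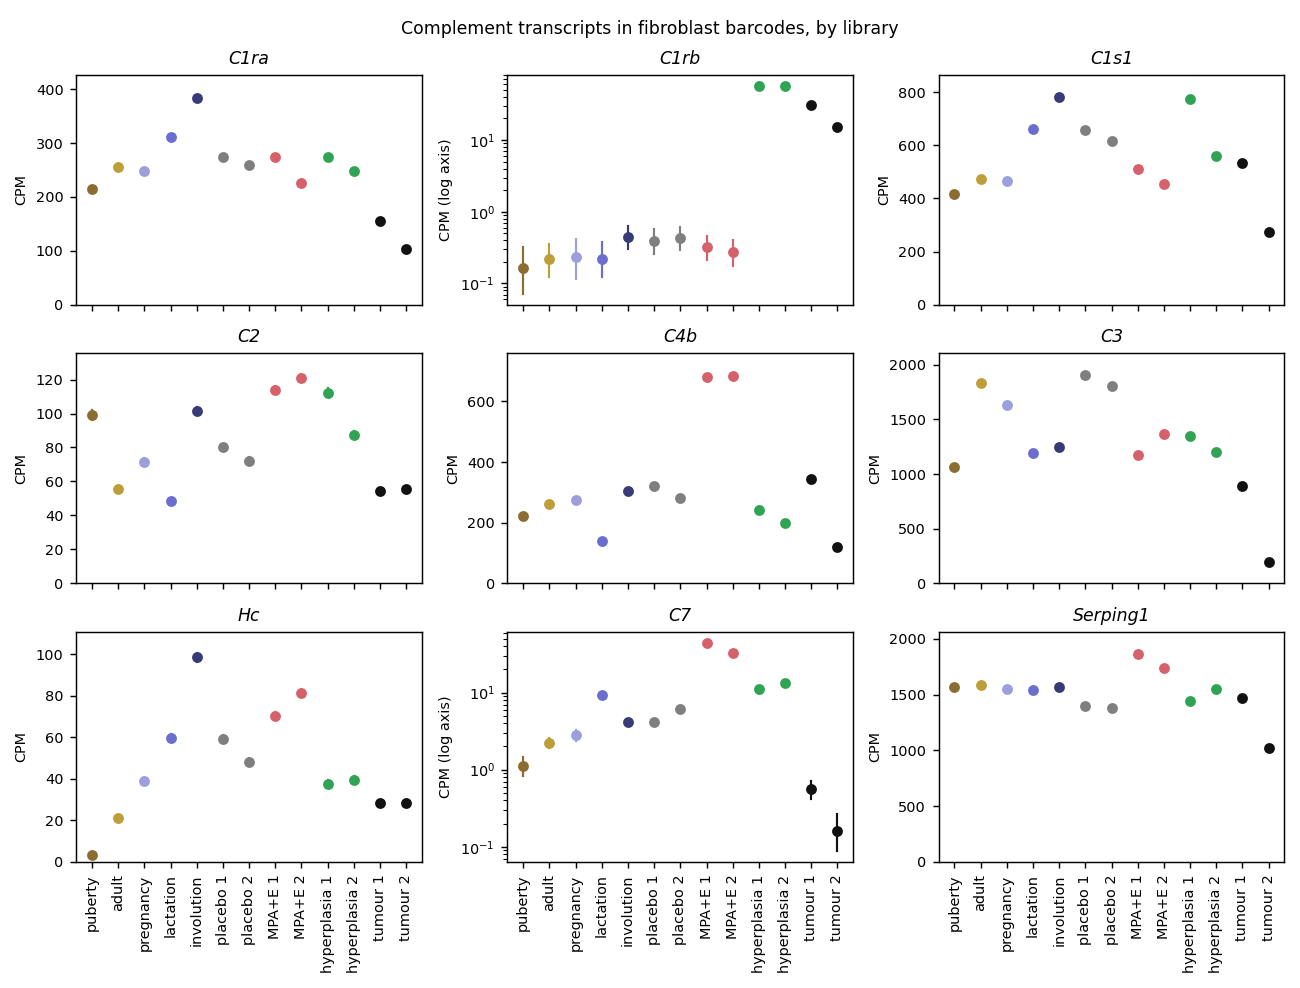
Level of each member in each of the 13 libraries, as CPM over the summed fibroblast barcodes, coloured by group, with vertical lines for the 95% Poisson interval (counting error only). The axis is logarithmic for C1rb and C7 and linear from 0 for the other members. C1rb separates the 4 raGFP-Wnt1 libraries (15.3 to 56.9 CPM) from the 9 wild-type ones (0.164 to 0.444), Hc rises from 3.33 in puberty to 98.4 in involution, and C7 is highest under MPA+E (43.8 and 32.2).

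Over the 5 stages, with 1 library each and no test, the spread was widest for Hc and C7. Hc was 29.6-fold higher in involution than in puberty (95% interval of counting error 25.3 to 34.8), and C7 was 8.54-fold higher in lactation than in puberty (6.45 to 11.5). The highest stage exceeded the lowest 2.20-fold for C4b, 2.10-fold for C2, 1.88-fold for C1s1, 1.79-fold for C1ra, 1.72-fold for C3 and 1.03-fold for Serping1. C1rb, with 82 UMIs over the stages, was below the 100 UMIs asked for. The widest ranges thus belonged to the terminal genes.

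Set against the adult, puberty had 2 of 8 members at least 2-fold lower and none higher, C7 at 0.496 and Hc at 0.157 of the adult level. Of all genes 2.41% were as far below and 3.12% as far above. C7 lay just inside the limit of 2-fold, and its interval of 0.358 to 0.678 ran past it. In pregnancy no member passed 2-fold in either direction, against 3.14% of genes above and 0.940% below. In lactation C7 was 4.23-fold and Hc 2.83-fold above the adult, against 8.05% of genes above and 4.98% below. In involution Hc alone of the members passed, at 4.66-fold, against 7.48% above and 4.03% below. The placebo libraries came from wild-type females of the same age as the adult library. Their means were 53.7 CPM for Hc and 5.12 CPM for C7, against 21.1 and 2.23 CPM in the adult. For the other members the placebo mean lay nearer to the adult level. The spread between libraries of the same stage was not tested, so these ratios are not read as effects of stage.

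Of the other complement genes, 22 had at least 100 UMIs over the stages. In involution 5 of them were at least 2-fold above the adult and 3 were below. Among the higher were Masp1, a protease of the lectin arm, at 4.33-fold, Colec12 at 2.62-fold and Colec11, a lectin, at 2.92-fold. Colec11 was near the floor, at 0.673 against 0.230 CPM, with an interval of 1.66 to 5.41. In lactation 2 were above, Colec12 at 2.79-fold and Cd55, a membrane inhibitor, at 2.47-fold, and Cfb was below at 0.487. Milk protein transcripts from the epithelium reached 626 CPM in the fibroblast barcodes of the lactation library, and their part in these levels was not tested.

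The fibroblasts of each library were clustered without the members, and clusters were named by fixed markers of fibroblast states. Progenitor-like (Pi16, Dpp4), preadipocyte-like (Fabp4, Cd36), lobular-like (Thbs4, Cilp) and adipogenesis-regulatory-like cells (Gdf10, Clec11a) were found in all 9 wild-type libraries, and ECM remodelling-like cells (Crabp1, Pla2g7) in 8 of them, all but puberty. Cd55, given above for lactation, is also among the progenitor-like markers. Progenitor-like cells made up 38.5% of fibroblasts in lactation and 16.1% in the adult, and their part in the Cd55 level was not tested. Unnamed clusters held 4.11% to 46.0% of fibroblasts in the wild type and 18.0% to 61.1% in the raGFP-Wnt1 libraries. Detection is given as the share of barcodes with a UMI expected after thinning each to 2000 UMIs. It covers only barcodes with at least 2000 UMIs and is the median over wild-type libraries unless stated. No state held the whole cascade at its highest level, but most members were highest in the same state. By median CPM over wild-type libraries, C1ra, C1s1, C2, C4b, C7 and Serping1 were highest in adipogenesis-regulatory-like cells and Hc in ECM remodelling-like cells. C3 was nearly level between progenitor-like and adipogenesis-regulatory-like cells.

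Hc marked the ECM remodelling-like cells. It was detected in 36.3% of them, in 9.47% of preadipocyte-like cells and in 0.264% of progenitor-like, 0.218% of lobular-like and 0.609% of adipogenesis-regulatory-like cells. Its level in ECM remodelling-like cells was 142 to 343 CPM in the 8 wild-type libraries, and these cells held 52.0% of all Hc UMIs while making up 12.5% of fibroblasts (medians). The share of Hc UMIs ran from 12.6% to 82.5% over these libraries. The cells made up only 2.63% of fibroblasts in lactation and 3.46% in involution, where 46.0% were unnamed. In 11 of 12 libraries with such cells they had the highest Hc of any named state. The exception was tumour 1, where a myofibroblastic-like cluster stood at 85.6 CPM and the ECM remodelling-like cells at 67.4.

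C3 was almost the reverse of Hc. It was detected in 93.9% of progenitor-like cells, 75.7% of lobular-like, 72.9% of adipogenesis-regulatory-like and 50.1% of preadipocyte-like cells, and in 8.09% of ECM remodelling-like cells. Its level was 1229 to 3254 CPM in progenitor-like cells and 46.3 to 245 CPM in ECM remodelling-like cells of the wild type, with no overlap. Adipogenesis-regulatory-like cells stood at 1665 to 2828 CPM, with a median of 2511 against 2435 in progenitor-like cells. Barcodes with epithelial, endothelial or pericyte markers had a C3 UMI in up to 19.5%, 7.46% and 12.3% of cases at the same depth, and the ECM remodelling-like share ran from 4.55% to 20.6%, overlapping all 3 of these ranges. In CPM, ECM remodelling-like cells had a median of 109.8, against highest libraries of 204 for epithelial, 64.6 for endothelial and 72.2 for pericyte barcodes. Progenitor-like cells had the highest C3 detection in 12 of 13 libraries, but the highest CPM in only 8 of 13.

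C2, C4b and C7 were highest in the adipogenesis-regulatory-like cells. C2 was detected in 43.1% of them and in 11.8% of preadipocyte-like, 6.12% of progenitor-like, 5.39% of lobular-like and 5.28% of ECM remodelling-like cells. Its level there was 254 to 389 CPM in the wild type, above every other named state of the same library. C4b was detected in 51.9% of them, in 30.4% of progenitor-like, 30.3% of preadipocyte-like and 13.01% of lobular-like cells, and in 7.01% of ECM remodelling-like cells. At the same depth epithelial barcodes had a UMI of C4b in up to 20.2% and of C2 in up to 14.6% of cases, and pericyte barcodes in up to 6.94% and 5.50%. Not all classes outside the fibroblasts are reported here. At the median, the C2 shares outside the adipogenesis-regulatory-like cells lay below the epithelial maximum, as did the C4b shares of lobular-like and ECM remodelling-like cells, and no order is read among them. C4b was highest in adipogenesis-regulatory-like cells in 9 of 11 libraries, and the 2 exceptions were both MPA+E libraries.

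By the median over wild-type libraries, C7 was concentrated in 1 state. It was detected in 6.74% of adipogenesis-regulatory-like cells (0.842% to 16.2%), in 0.923% of lobular-like cells and in 0.0216% of ECM remodelling-like, 0.0966% of preadipocyte-like and 0.125% of progenitor-like cells. Cycling cells, named in 2 wild-type libraries, stood at 0.384%. The adipogenesis-regulatory-like cells held 67.2% of all C7 UMIs at the median, with a range of 15.2% to 75.8%. They were the highest state in 11 of 11 libraries. Their C7 level differed between the single stage libraries. It was 4.12 CPM at puberty, 18.6 for the adult, 13.5 at pregnancy, 116 at lactation and 36.1 at involution. In the placebo libraries, of the same age as the adult, it was 30.2 and 47.6 CPM. In hyperplasia it stood at 135 and 218 CPM, and C7 was the leading gene of that cluster in both libraries.

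Serping1, C1s1 and C1ra were broad. Serping1 was detected in 98.1% of adipogenesis-regulatory-like cells, in 75.0% of ECM remodelling-like cells and in 70.8% of the cycling cells of 2 libraries. C1s1 was detected in 74.3% of adipogenesis-regulatory-like, 60.7% of ECM remodelling-like, 54.3% of progenitor-like and 35.2% of cycling cells. C1ra was detected in 24.9% of cycling, 35.2% of lobular-like and 48.9% of adipogenesis-regulatory-like cells. Serping1 and C1s1 were highest in the adipogenesis-regulatory-like cells in 11 of 11 libraries and C1ra in 9 of 11.

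**Figure D2:**
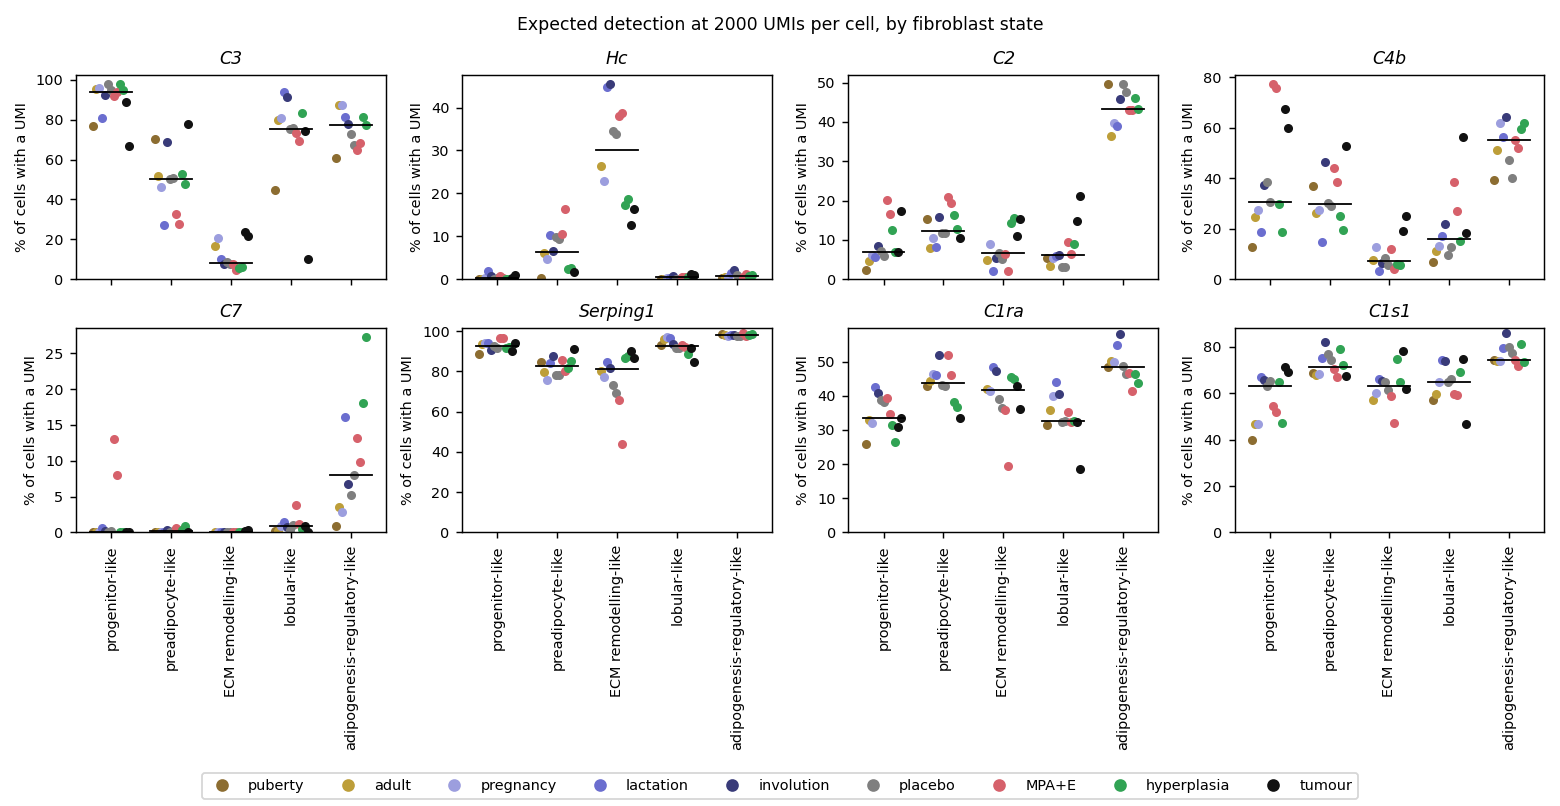
Share of barcodes (%) in which each member was detected, as calculated for thinning each barcode of at least 2000 UMIs to 2000, by fibroblast state. Each point is 1 library and the black bar is the median over libraries. Hc is highest in ECM remodelling-like cells (36.3% in the wild type), C3 is lowest there (8.09%) and highest in progenitor-like cells (93.9%), and C2, C4b and C7 are highest in adipogenesis-regulatory-like cells.

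C7 gave no UMI in 516 barcodes with endothelial markers, 901 with epithelial markers and 1147 with pericyte markers, which allows shares of barcodes with a UMI of up to 0.581%, 0.333% and 0.262%. These limits hold for barcodes with a UMI at this depth (median UMI 1311 to 4103 in endothelial barcodes of the wild type), not for cells that express the gene. The pericyte barcodes were not empty of complement transcripts, since C1s1 and Serping1 were both well detected in them. Hc stood at no more than 8.22 CPM in any of these classes.

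MPA+E against placebo was compared to see how the members answer to ovarian hormones. Over all fibroblasts 3 of 9 members rose and none fell, where 4.33% of 15642 genes were called in either direction, 2.69% of them higher and 1.64% lower (edgeR quasi-likelihood test, Benjamini-Hochberg adjusted p under 0.05). C7 rose by 2.88 ± 0.27 (log2 fold change ± SE, n = 2 libraries a group, adjusted p = 0.0110), C4b by 1.2 ± 0.11 (0.0110) and C2 by 0.64 ± 0.11 (0.0432). For each of the 3 both MPA+E libraries lay above both placebo libraries. The median of the 9 members was 0.39, against 0.01 for all genes. Library levels were known when the members were chosen, so these values and calls describe the members and are not independent evidence.

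The other 6 members did not pass. C3 had a log2 fold change of -0.53 ± 0.15 (adjusted p = 0.155 by edgeR), C1s1 -0.39 ± 0.11 (0.140), Hc 0.52 ± 0.14 (0.134) and Serping1 0.39 ± 0.12 (0.185), and in each the 2 groups did not overlap. C1ra (-0.08 ± 0.11) overlapped, and C1rb (-0.45 ± 0.30) rested on at most 33 UMIs a library. The call of C7 ended without placebo 1 (2.57, adjusted p = 0.0515), that of C4b without placebo 1 or placebo 2 (0.0887 and 0.0960, at log2 fold changes of 1.23 and 1.16), and that of C2 without placebo 1, placebo 2 or MPA+E 2 (0.267, 0.285 and 0.0713) or without a filter on low counts (0.0567). With DESeq2 in place of edgeR, C1s1 (-0.40, adjusted p = 0.0187) and C3 (-0.54, 0.0201) were called lower and Serping1 (0.38, 0.0362) higher. Without placebo 1 the whole table held 18 genes called higher and 4 lower, and without placebo 2 it held 35 and 7.

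Of the other complement genes 27 were tested, 2 rose, 2 fell and 23 did not pass. C6, the terminal component encoded beside C7, rose by 4.40 ± 0.30 (edgeR adjusted p = 0.00716), from 0.259 and 0.444 CPM to 8.21 and 6.77. Cfb, encoded beside C2, rose by 1.16 ± 0.10 (0.0101), from 100 and 83.2 CPM to 215 and 192. Colec10, a lectin that recognises sugars, fell by 3.25 on the log2 scale (0.0121), and Clu, a fluid-phase inhibitor of the terminal complex, fell by 0.69 (0.0427). The summed endothelial markers of the fibroblast barcodes moved with the treatment, at 14.5 and 14.6 CPM under placebo against 43.9 and 45.7 under MPA+E, nearly all of it Kdr, with Pecam1 at 0 by the choice of barcodes. Their part in the result was not tested.

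Within states the changes were uneven. In progenitor-like cells, where 8.80% of 13188 genes were called (4.72% higher and 4.08% lower), 3 of 8 tested members were called higher and none lower. The markers that name this state, summed over all fibroblasts, stood at 6050 and 5626 CPM under placebo and at 2320 and 2839 CPM under MPA+E, and their part in the changes within the state was not tested. C7 stood at 0.400 and 0.639 CPM in them under placebo and at 79.6 and 45.9 CPM under MPA+E, a difference of 6.87 ± 0.39 (log2, edgeR) that is given as a description, since the rise of C7 in this class was known when the members were chosen. Its share of barcodes at 2000 UMIs went from 0.0619% and 0.125% to 13.1% and 8.08%. C4b rose by 1.97 ± 0.16 (edgeR adjusted p = 0.00468), from 310 and 248 CPM to 1184 and 963, and C2 by 1.71 ± 0.16 (0.00639), from 40.1 and 30.9 to 128 and 100.4.

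The rise was present in both progenitor-like clusters of each MPA+E library. C7 stood at 119 and 34.3 CPM in the 2 clusters of MPA+E 1, led by Cxcl13 with Tgm2 and by Ecscr with Limch1, and at 57.6 and 29.99 CPM in those of MPA+E 2, led by Ctla2a with Krt23 and by Ecscr with Cldn11. The placebo clusters of that name were led by other genes, among them Akr1c18, Mrgprg and Arl4d, and C7 was at most 0.969 CPM in each. Unnamed clusters led by Myoc or Cxcl13 stood at 3.89 and 7.24 CPM under placebo, and an unnamed Cxcl13 cluster of MPA+E 2 at 84.3. With a stricter limit on names, chosen after seeing the data, the progenitor-like cells of the MPA+E libraries went from 1578 to 766 and from 2520 to 1112, and those of the placebo libraries stayed at 1115 and 1814. The difference was then 5.89 for C7, and C2 no longer passed (1.16, edgeR adjusted p = 0.115).

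The C7 effect in progenitor-like cells was set against that in the other fibroblasts of the same libraries. The difference of the 2 effects was 5.03 ± 0.47 (log2, edgeR interaction), in a fit that called 0.837% of 14938 genes, 0.382% upward and 0.455% downward. C7 was the 1 of 9 members past the threshold, and it was not past it without placebo 1 or placebo 2, with differences of 5.06 and 4.98. With the stricter limit on names, chosen after seeing the data, the difference was 3.47. As the rise was known beforehand, this is a description and not a test. C2 (1.37 ± 0.25, edgeR adjusted p = 0.0806) and C4b (1.33 ± 0.25, 0.0851) did not pass.

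In adipogenesis-regulatory-like cells, where C7 was already present, its levels were 30.2 and 47.6 CPM in the placebo libraries and 86.4 and 58.0 in the MPA+E libraries (0.93 ± 0.27, edgeR adjusted p = 0.147). None of 8 members tested was called there, against 3.46% of genes (2.34% higher and 1.12% lower), and limma-voom and DESeq2 also called none. At an unadjusted p under 0.05 there were 4 members, and 1884 of the 11674 genes. C7 was called there in 3 of 11 alternatives. They were the fit without a filter on low counts (0.94, edgeR adjusted p = 4.32e-07), that without placebo 2 (log2 fold change 1.38) and the replicate block. With the replicate block 4 of the 8 members were called, C4b, C7 and Serping1 higher and C3 lower. That fit called 902 genes higher and 829 lower of 11674. Progenitor-like cells held 2.46% and 3.39% of all C7 UMIs under placebo and 61.9% and 43.8% under MPA+E, while the adipogenesis-regulatory-like cells went from 75.8% and 74.0% to 21.3% and 15.2%.

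In preadipocyte-like cells (3.71% of 12533 genes called, 2.56% higher and 1.15% lower) 1 of 8 members rose and 1 fell. C2 rose by 1.00 ± 0.12 (edgeR adjusted p = 0.0167), from 64.1 and 63.0 CPM to 129.6 and 128.6, and C3 fell by 1.65 on the log2 scale (SE 0.16, 0.00932), from 922 and 1073 CPM to 347 and 305. Without placebo 1 or placebo 2 the adjusted p of C2 was 0.0859 and 0.0730, and at a clustering resolution of 1.2 it stood at -0.07. C3 stood at -2.81 at that resolution (0.0762), in a fit that called 14 genes higher and 7 lower of 11797. In lobular-like cells (2.27% of 10486 genes called, 1.65% higher and 0.620% lower) C4b rose by 1.90 ± 0.28 (0.0206) and C2 by 1.43 ± 0.24 (0.0309), from 77.9 and 105 to 427 and 244 CPM for C4b. Here the C4b call ended without placebo 1 (0.0874), and that of C2 without placebo 1 (0.122), placebo 2 (0.152) or MPA+E 1 (0.0594) or at a resolution of 1.2 (0.0923).

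In ECM remodelling-like cells (0.0322% of 12431 genes called, 0.00804% higher and 0.0241% lower) none of 7 members tested was called by edgeR, DESeq2 or limma-voom, and 1 had an unadjusted p under 0.05. Hc, the gene that marks these cells, stood at 240 and 235 CPM in placebo and 257 and 276 in MPA+E libraries (0.10 ± 0.15, edgeR adjusted p = 0.849). C3 was called lower without a filter on low counts (-0.83, edgeR adjusted p = 0.00407) and with the stricter limit on names (-1.22, 0.0284). Without MPA+E 1, 4 of the members were called, all with lower values, C1ra, C2, C3 and Serping1, in a fit that called 203 genes higher and 210 lower of 12640. An unnamed cluster of 1383 cells in MPA+E 2, led by Fbln7 and Egr3, also held Hc at 238 CPM. Cfb rose in the progenitor-like (1.19), preadipocyte-like (1.49), lobular-like (2.07) and adipogenesis-regulatory-like cells (1.14), and C6 in the progenitor-like (6.67) and adipogenesis-regulatory-like cells (3.86).

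**Figure D3:**
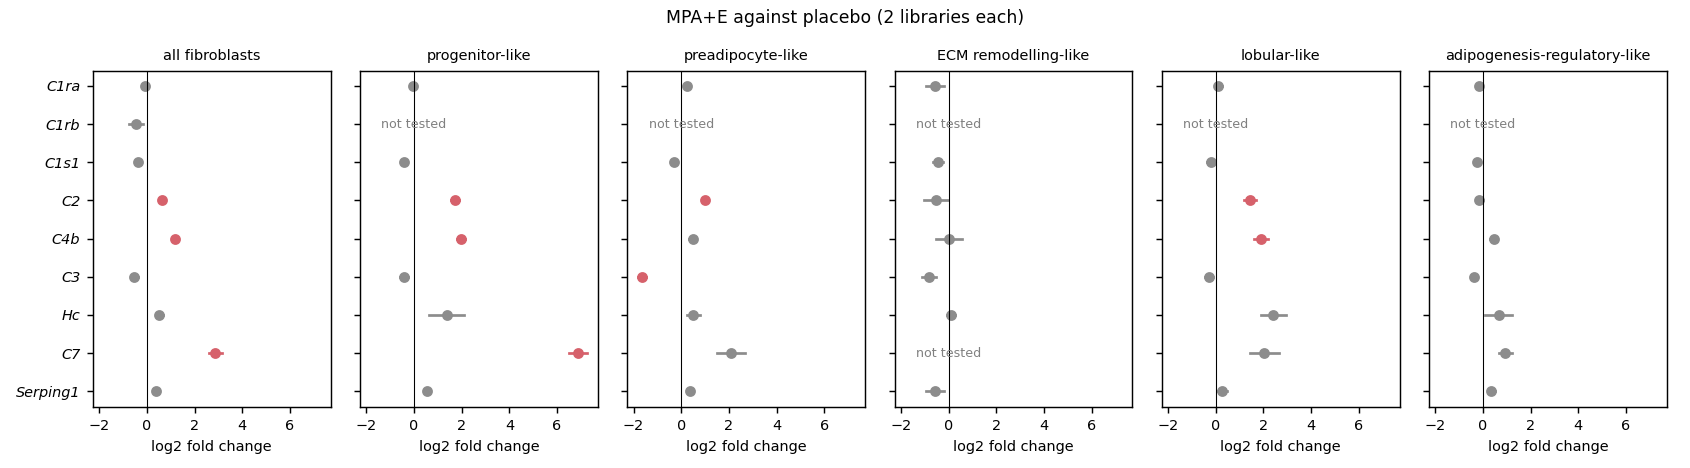
Log2 fold change of each member under MPA+E against placebo (2 libraries a group, edgeR), over all fibroblasts and within each named state; points are estimates, bars are standard errors, and red marks an adjusted p under 0.05. C7 has its largest change in progenitor-like cells (6.87), C4b and C2 pass there and in lobular-like cells, and C3 is lower in preadipocyte-like cells (-1.65).

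Hyperplasia was compared with normal tissue (puberty and adult joined) to follow the members into the raGFP-Wnt1 gland. In this comparison 2 of 9 members were called higher and none lower, where 14.0% of 16302 genes were called, 7.70% higher and 6.29% lower (limma-voom, adjusted p under 0.05). C1rb went from 0.164 and 0.217 CPM to 56.6 and 56.9, a difference of 8.11 ± 0.83 (log2) that was known when the members were chosen and is given as a description. C7 rose by 2.85 ± 0.42 (log2, n = 2 libraries a group, limma adjusted p = 0.0174), from 1.11 and 2.23 CPM to 11.0 and 13.4. Its library levels were known as well, so this p-value is not independent evidence. The placebo libraries, also of wild-type females, were not in the fit, and their mean C7 level was 5.12 CPM. Strain background, sort, age and transgene differ with the group and cannot be told apart from it. The summed endothelial markers of the fibroblast barcodes went from 22.6 and 26.8 CPM to 5.47 and 12.7, most of it Kdr, with Pecam1 at 0 by the choice of barcodes. Vwf went the other way, from 0.103 and 0.135 CPM to 1.13 and 0.54. Muscle markers went from 7.82 and 4.44 CPM to 0.726 and 1.33, and the part of these markers in the result was not tested.

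Hc did not pass (2.02 ± 0.67, limma adjusted p = 0.0887), and its normal libraries were themselves far apart at 3.33 and 21.1 CPM. It was called without adult (3.48, 0.0342), without tumour 1 (0.0472) and without tumour 2 (0.0476), and stood at 0.87 without puberty (0.134). The other 6 members had log2 fold changes between -0.17 and 0.54. In the placebo libraries, outside the fit, the mean of Hc was 53.7 CPM, above the 38.6 CPM of hyperplasia. The call of C7 ended when puberty, adult, hyperplasia 1 or hyperplasia 2 was left out, with limma adjusted p of 0.0716 to 0.112 and log2 fold changes of 2.45 to 3.40. Those fits called 8, 183, 2 and 1 genes of all tested, in the same order. C1rb was not past the threshold in those fits either, at 7.99 to 8.29.

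Of the other complement genes 32 were tested, 5 rose, 2 fell and 25 did not pass. Among those that rose, C1s2 rose by 5.81 ± 0.86 (limma adjusted p = 0.0175), Masp1 by 3.68 ± 0.33 (0.00671), Colec12 by 1.57 ± 0.17 (0.00879) and Cd59a, an inhibitor of the membrane attack complex, by 1.55 ± 0.29 (0.0288). Vtn, which keeps the terminal complex off membranes, fell by 1.03 (0.0278). Cfd, the factor D protease, fell by 4.84 (0.0184) but was at most 0.488 CPM in these libraries.

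Tumours were compared with the hyperplastic tissue of the same mice. Of 9 members 3 fell and none rose, where 29.3% of genes were called, 13.9% lower and 15.4% higher. C7 fell by 5.30 on the log2 scale (SE 0.56, limma-voom adjusted p = 0.00467), from 11.0 and 13.4 CPM to 0.556 and 0.160. C1rb fell by 1.37 (SE 0.33, 0.0266) and C1ra fell by 1.04 (SE 0.24, 0.0241). The median of the members was -0.85, against -0.01 for all genes. As library levels were known at the choice of the members, these values and calls are not independent evidence. Markers of other cell types moved with the group in the fibroblast barcodes, and not all lists are reported here. The pericyte markers summed to 5.83 to 5.89 CPM in hyperplasia and 9.48 to 18.0 in tumours, with Rgs5 at 0 by the choice of barcodes. The endothelial markers, mostly Kdr, summed to 5.47 and 12.7 CPM and then to 2.81 and 3.52. Of the macrophage markers, Csf1r went from 0.814 and 0.387 CPM to 3.32 and 4.12, and C1qa from 0.124 and 0.207 to 0.693 and 0.843. Cd68 moved the other way, from 3.43 and 2.62 CPM to 0.956 and 0.946. The whole macrophage list summed to 3.22 to 4.37 CPM in hyperplasia and 4.99 to 5.92 in tumours. Their part in the result was not tested.

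C3 had a log2 fold change of -1.62 ± 0.68 (limma adjusted p = 0.113), with tumour 1 at 892 and tumour 2 at 193 CPM, both below hyperplasia. C2 stood at -0.85 ± 0.30 (0.0759) and C1s1 at -0.78 ± 0.35 (0.125). In a fit of the 4 raGFP-Wnt1 libraries alone with the mouse as a block both passed, C2 at -0.85 (0.0283) and C1s1 at -0.79 (0.0406), so 5 members were called lower. That fit leaves out the normal libraries as well as adding the block, and the 2 changes were not separated. C4b (-0.12 ± 0.47), Hc (-0.44 ± 0.61) and Serping1 (-0.29 ± 0.22) did not pass in either.

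Single libraries decided several of these calls. Without tumour 1, 7 members were called, among them C3 at -2.74 (limma adjusted p = 5.86e-04), C1s1 at -1.29 (0.00464), C4b at -0.90 (0.00961) and Serping1 at -0.58 (0.0341). That fit called 3614 genes higher and 3506 lower of 17002, so a larger share of all genes was called as well. Without tumour 2, C4b was called higher (0.68, 0.0485). The C1ra call ended without hyperplasia 1 (0.144) or hyperplasia 2 (0.0900), and that of C1rb without puberty (0.0518), adult (0.0523), hyperplasia 1 (0.141) or hyperplasia 2 (0.108). The same omissions of puberty or adult brought C2 past the threshold (0.0432 and 0.0443). C7 was called in all 14 alternatives, with log2 fold changes from -6.23 to -4.41.

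The state that held most C7 was named in both hyperplasia libraries and in neither tumour. The adipogenesis-regulatory-like cells made up 8.64% and 6.90% of hyperplasia fibroblasts and held 91.8% and 87.9% of the C7 UMIs. The markers of that state, summed over all fibroblasts, were not lower in tumours, at 1150 and 1132 CPM against 878 and 936 in hyperplasia, so the absence of a named cluster does not show that such cells were absent. A myofibroblastic-like cluster of 1584 cells in tumour 1 gave no C7 UMI, which allows up to 0.189% of cells with a UMI, and sets no limit on cells that express it. In sums over a library, fewer cells of a state and less RNA in each cell cannot be told apart. Progenitor-like cells were present in all 4 raGFP-Wnt1 libraries, and there C3 stood at 3317 and 2234 CPM in hyperplasia and 1742 and 1072 in tumours, while C4b stood at 235 and 139 and then at 686 and 540.

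C1rb was present in every named state of hyperplasia and tumours, in contrast to C7. It stood at 82.2 and 83.7 CPM in adipogenesis-regulatory-like cells, at 34.2 to 69.5 in ECM remodelling-like, 29.6 to 41.6 in progenitor-like and 38.4 to 53.0 in preadipocyte-like cells. It was 9.65 and 23.4 CPM in cycling cells, 14.4 to 44.7 in lobular-like cells and 17.7 in the myofibroblastic-like cells of tumour 1. In tumours the preadipocyte-like and lobular-like names are labels from marker scores and do not show that those states were present. With the stricter limit on names, no preadipocyte-like cells remained in tumour 1 and no lobular-like cells in tumour 2. In the wild type no named state of any library exceeded 1.06 CPM.

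Among the other complement genes 32 were tested, 7 rose, 5 fell and 20 did not pass in tumours against hyperplasia. Cd59a rose by 3.52 ± 0.23 (limma adjusted p = 0.00190), from 7.12 and 6.64 CPM to 76.1 and 80.6, and its paralog Cd59b by 1.47 ± 0.25 (0.0128). Cpn2 rose by 5.21 ± 0.69 (0.00746) and C1qb by 2.92 ± 0.49 (0.0125), both below 1 CPM in every library. Among the lower genes were Vtn at -3.26 (0.00208), C6 at -3.62 (0.00909), Cd46 at -1.71 (0.0176) and Cd55b at -5.77 (0.0213), the last 3 at most 1.98 CPM in hyperplasia. The C1q genes are macrophage transcripts, and C1qa stood at no more than 0.843 CPM in any library.

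**Figure D4:**
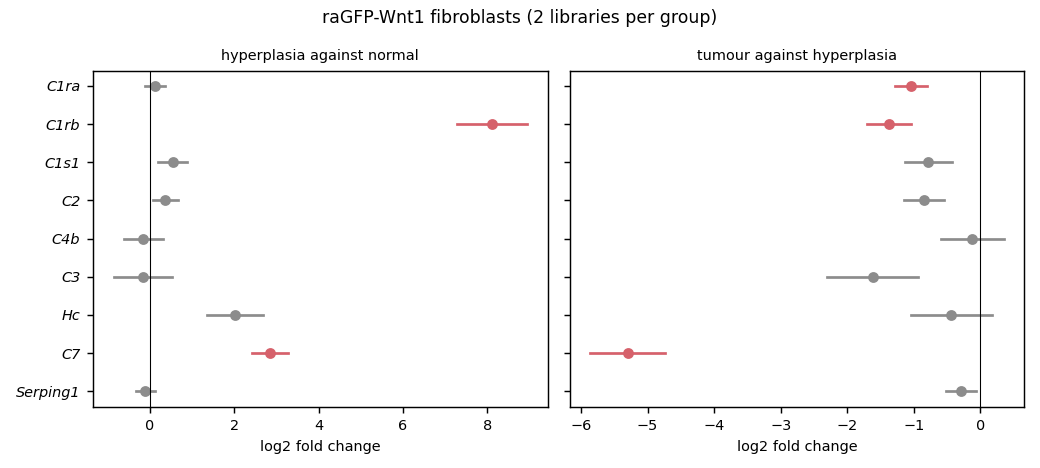
Log2 fold change of each member in hyperplasia against normal tissue (left) and in tumours against hyperplasia (right), from 1 limma-voom fit with 2 libraries a group; points are estimates, bars are standard errors, and red marks an adjusted p under 0.05. C1rb (8.11) and C7 (2.85) are higher in hyperplasia, and C7 (-5.30), C1rb (-1.37) and C1ra (-1.04) are lower in tumours.

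The genes whose levels were most like those of each other member over the 13 libraries are given with Pearson's r as a description. They were Hspa12a for C1ra (0.95), Naaladl2 for C1s1 (0.96), Gucy1a1 for C2 (0.856), Npr1 for C3 (0.976), Ampd3 for C4b (0.883), Gatad2a for Hc (0.896) and Lmo2 for Serping1 (0.94). Mettl7a1 was most like C7 (0.972), followed by Acss3 (0.925) and Klhl2 (0.924). The libraries share groups, sorts and strains, so these values describe the 13 libraries and no more.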

How the data were processed

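Cell Ranger 6.1.2 made the deposited count matrices, with mm10 as the build, per the submitters' processing notes; the annotation release is not given in the sources used here. Values are raw UMI counts deposited by the authors with no normalization, for 32285 genes. Limits on barcodes were 500 to 7500 genes and 10% mitochondrial UMIs, and fibroblast barcodes had at least 50 UMIs of Dcn, Lum and Col1a2 per 10000 and no UMI of Epcam, Pecam1, Rgs5, Sox10, Ptprc or Myog. Depth was 47521842 to 102522735 fibroblast UMIs a library; arms with 1 library got no test. Doublets were scored against simulated doublets, and the highest scores, 0.8% per 1000 barcodes, were removed only as an alternative.

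Each library was clustered alone (scanpy 1.11.5, 1000 variable genes, with the members and other complement genes left out, 30 components, 20 neighbours, Leiden resolution 0.8). A cluster of at least 100 cells was named when at least 3 markers of a state were 2-fold higher, with a mean log2 fold of at least 0.5 and, where its 10 leading genes held markers of another class, more of its own. That rule was set after cluster tables had been seen and before member levels by state were computed from these clusters, with earlier results by state known. The authors' annotation was not used here, so names may differ from theirs.

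UMIs were summed per library, or per state and library. Hormone comparisons used edgeR 4.0.16 (quasi-likelihood, TMM, filterByExpr) and raGFP-Wnt1 comparisons limma 3.58.1 with voom weights, fitted once over the 6 libraries of normal, hyperplasia and tumour, as in the study's methods, adjusted over all genes tested; the SE of an edgeR value is the fold change over the root of its F. Samples are pools or mice as labelled, and hyperplasia and tumour libraries of a number share a mouse, so the numbers pair them; their deviations correlated at 0.0949 over 16001 genes. On simulated counts edgeR recovered 70% of genes changed 2-fold and 95% of those changed 4-fold in the hormone comparison (15642 genes), and limma-voom 74% and 94% in hyperplasia against normal (16302 genes); 4.62% and 7.69% of the calls were false. Alternatives were DESeq2 1.42.0, other scalings, filters, barcodes and clustering, blocks and leaving out each library. All members were named; of the other complement genes, those called in a comparison, at most 8, were named. The members and lists were chosen with earlier results of these data known. Some results among the other genes are not reported here.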

Additional observations from a re-analysis of the deposited data

Results flagged for a closer look

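The MPA+E effect on C7 differed between cell groups of the same libraries. The rise in progenitor-like cells was 5.03 larger on the log2 scale than that in the other fibroblasts, by the interaction term, and 3.47 larger with a stricter limit on cluster names chosen after seeing the data. It was not past the threshold without placebo 1 or placebo 2, and the rise of C7 in this class was known when the members were chosen, so the value is a description.

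Complement transcripts also appeared in barcodes outside the fibroblasts. In barcodes with Rgs5 and Notch3 UMIs (pericyte markers, 23 to 293 barcodes in each of 9 wild-type libraries) C1s1 had a median level of 303.5 CPM and Serping1 one of 538.3 CPM, with ranges of 226 to 687 and 382 to 864. Endothelial barcodes reached at most 53.9 CPM of C1s1 and 67.3 CPM of Serping1.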

How the results depend on the processing

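The number of members called moved with several settings, and the cause was not tested. For MPA+E in all fibroblasts it was 3, but 6 with DESeq2, 6 with the replicate block, which added C1s1 and C3 lower and Hc higher (placebo and MPA+E numbers only name the libraries, and deviations of the same number correlated at 0.398), and 0 to 4 with a library left out. Calls over all genes moved as well, from 421 higher and 257 lower to 714 and 644 with DESeq2 and to 1268 and 1183 with the block. In preadipocyte-like cells they moved from 321 and 144 to 521 and 321 without the filter on low counts. There they were 743 and 651 with the block and 14 and 7 at a resolution of 1.2. Within states it was 7, but 13 without a filter on low counts, 13 with the replicate block (4 of them in adipogenesis-regulatory-like cells, where it was 0: C4b, C7 and Serping1 higher and C3 lower), 4 at a clustering resolution of 1.2 and 4 to 11 with a library left out. For the progenitor-like interaction it was 1, but 3 without the filter (342 genes higher and 293 lower, against 57 and 68), 3 at a resolution of 1.2 (60 and 48) and 0 to 5 with a library left out. For hyperplasia it was 2, and 0 to 3 with a library left out. For tumours it was 3, but 5 with the replicate block of the mouse in a fit without the normal libraries (2660 genes higher and 2177 lower, against 2503 and 2274) and 1 to 7 with a library left out. Of the values scored, which are all members in the comparisons of whole libraries and the called members within states, 9 reversed in sign: C1ra under MPA+E was 0.01 without MPA+E 2; C2 was -0.05 and C3 0.20 in hyperplasia without adult; C4b in tumours was 0.09 with edgeR, 0.08 with DESeq2, 0.03 without hyperplasia 1 and 0.68 without tumour 2; Serping1 in tumours was 0.01 without tumour 2; and C2 in preadipocyte-like cells was -0.07 at a resolution of 1.2. Over the libraries left out, these values ranged from -0.18 to 0.01 for C1ra under MPA+E, -0.05 to 0.84 for C2 and -0.53 to 0.20 for C3 in hyperplasia, and -0.90 to 0.68 for C4b and -0.58 to 0.01 for Serping1 in tumours. Of the other values of single members, 384 kept direction and side of the threshold, 32 kept direction and lost the call and 19 gained one. C1rb, with 8 to 33 UMIs in a wild-type library, and C7, with 14 in tumour 2, are limited by depth.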
